A study of Homo sapiens with 16 samples.

Results

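The genes described here are 46 interferon-stimulated genes, taken as a list of symbols and matched to the 57820 Ensembl identifiers of the deposited tables. The list was chosen with earlier results of these data known, so its shares beside those of all genes are descriptive. All 46 were found, and all 46 had enough reads to be tested in both culture conditions. They were followed in 16 RNA-Seq libraries of 2 human triple-negative breast cancer cell lines. Both MDA-MB-231 and MDA-MB-436 carried the 7TGP reporter, in which Tcf/Lef sites drive eGFP beside a puromycin resistance gene. Repeated rounds of FACS sorting and expansion gave an eGFP-positive (POS) and an eGFP-negative (NEG) subline of each line, and each subline is a single sorted population. Every subline was sequenced in low serum (0.5% FBS, day 3) and in standard serum (10% FBS, day 6), with 2 replicates per group and no further treatment. The paper's methods give rRNA depletion for the low-serum libraries and poly(A) selection for the standard-serum libraries, whereas the labels name a single kit, and the lines were kept in different basal media. Serum, days in culture, library preparation and sequencer cannot be told apart, so no test was run between the serum conditions, and the line and its medium cannot be told apart either.

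Interferons are secreted proteins that act through cell surface receptors and the kinases JAK1, JAK2 and TYK2. Type I and type III interferons activate a complex that holds STAT2 and IRF9 and binds the interferon-stimulated response element (ISRE) of target genes, whereas type II interferon acts mainly through GAS elements. The induced proteins sense viral nucleic acid, degrade or sequester viral RNA, block entry at membranes, conjugate the ubiquitin-like protein ISG15, or feed back on the pathway itself. Tumour cells can hold these transcripts at a raised basal level without added interferon.

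The libraries held 27918418 to 32667756 counts in low serum and 31827130 to 46044073 in standard serum. Levels are given as CPM, a gene's counts scaled to the library total, in replicates 1 and 2, and POS against NEG changes as log2 fold changes from edgeR's quasi-likelihood test. A gene was called when its Benjamini-Hochberg adjusted p over all protein-coding genes tested was below 0.05 and its absolute log2 fold change was at least 1. The marker lists gave a mixed picture. Of the mesenchymal genes, VIM lay between 659 and 5040 CPM in all libraries. It was called lower in MDA-MB-231 POS in low and standard serum (log2 fold changes -1.05 and -1.03). In MDA-MB-436 its changes of 0.16 and 0.49 were under the fold threshold. CDH2 lay between 0.193 and 1.55 CPM in MDA-MB-231 and at or above 135 CPM in MDA-MB-436. Of the epithelial genes, CDH1 lay at or below 0.401 CPM, but KRT8 lay between 258 and 731 CPM and KRT18 between 116 and 371 CPM, and KRT19 reached 846 CPM in MDA-MB-231. The hormone receptors ESR1 and PGR lay at or below 0.98 CPM. Of the leukocyte list, CD3E and CD68 lay at or below 0.2 CPM, while CD14 lay between 1.75 and 10.5 CPM over all libraries and NCAM1 reached 34.7 CPM in MDA-MB-436. PTPRC lay between 1.83 and 9.31 CPM in MDA-MB-231 and was higher in both POS libraries in each serum condition, and LYZ lay between 1.59 and 8.71 CPM there and was lower in both. Their part in the results was not tested. In bulk libraries, fewer cells expressing a gene and less RNA per cell cannot be told apart.

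The promoters of these genes were searched first, for sequences like the ISRE and GAS elements described above. RefSeq promoter windows (GRCh38.p14, 250 bases before to 50 bases after a start site) were given for 37 of the 46 genes. IRF7, DHX58, OAS2, OASL, IFIT2, IFITM2, USP18, MX2 and TRIM22 had none. The ISRE-type repeat GAAANNGAAA was found on either strand in at least 1 window of 24 of 37 genes (64.9%), against 4.38% of the 27305 genes with a window. The GAS-type palindrome TTCNNNGAA was found for 9 of 37 (24.3%), against 9.38% of all genes. In 5 of the 37 members, BST2, EPSTI1, IFI27, IFITM1 and MX1, matches of both motifs overlapped somewhere in a window. Among all 27305 genes with a window, 20 had such an overlap. Stretches around the ISRE-type match nearest to a start site, of those lying wholly before it, are printed for some members whose changes stand out below. They run 5′ to 3′ on the gene's strand, with the matches in capitals. XAF1, whose changes stand out too, had 2 windows and no ISRE-type match in either, so it has no printed stretch. IFITM1 (chr11:313972-314037, plus strand), IFIT5 (chr10:89414521-89414567, plus strand), ISG20 (chr15:88638919-88638984, plus strand), MX1 (chr21:41431826-41431891, plus strand), IFI44L (chr1:78620347-78620412, plus strand), IFI27 (chr14:94110613-94110678, plus strand) and EPSTI1 (chr13:42992254-42992319, minus strand) are shown to set genes that moved in different directions beside each other.
IFITM1: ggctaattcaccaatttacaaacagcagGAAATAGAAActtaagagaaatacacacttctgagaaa
IFIT5: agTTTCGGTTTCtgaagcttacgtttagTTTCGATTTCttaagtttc
ISG20: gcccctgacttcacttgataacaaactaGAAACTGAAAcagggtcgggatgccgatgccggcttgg
MX1: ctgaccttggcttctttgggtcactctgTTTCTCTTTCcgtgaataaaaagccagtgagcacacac
IFI44L: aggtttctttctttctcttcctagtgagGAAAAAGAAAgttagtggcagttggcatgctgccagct
IFI27: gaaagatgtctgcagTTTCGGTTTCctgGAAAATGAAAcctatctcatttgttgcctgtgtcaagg
EPSTI1: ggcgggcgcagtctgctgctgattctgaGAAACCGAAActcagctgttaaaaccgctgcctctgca
IFIT5 and IFI27 held a pair of matches within the printed stretch. IFITM1 and IFIT5 each held a further ISRE-type match that ran across the start site and is not in capitals, and in IFITM1 the overlapping GAS-type match lay with that one. A match is a run of letters, and binding was not measured.

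In standard serum the summed level of the 46 genes was 5259 and 5209 CPM in MDA-MB-436 7TGP-NEG and 2490 and 2446 CPM in 7TGP-POS. In low serum the same sublines gave 6553 and 6435 CPM in NEG and 6588 and 6709 CPM in POS. The sum in MDA-MB-231 stayed between 2852 and 3038 CPM in low serum and between 3415 and 3510 CPM in standard serum. Both POS libraries lay below both NEG libraries in low serum and overlapped them in standard serum. A sum weighs the most abundant genes most, and LGALS3BP, abundant in this line, was lower in both POS libraries in each condition. Gene by gene, 20 of the 46 log2 fold changes in MDA-MB-231 were above 0 in low serum and 33 in standard serum.

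**Figure D1:**
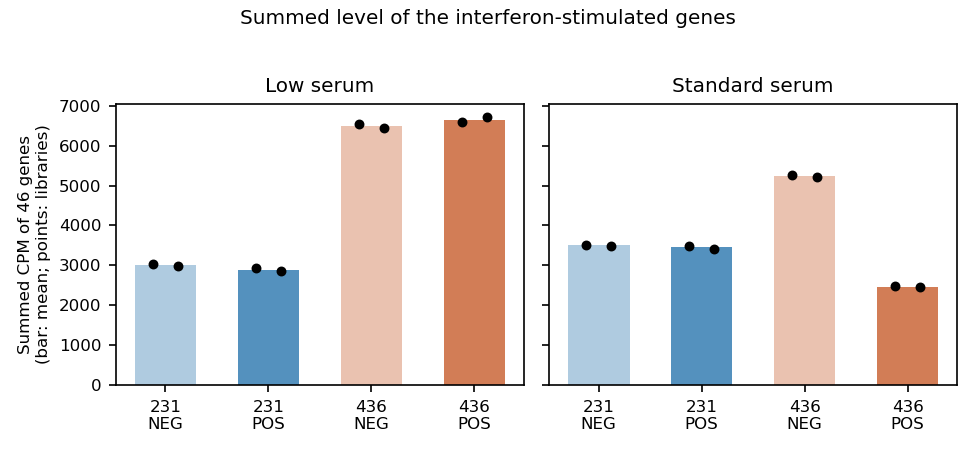
Summed CPM of the 46 genes (y axis, linear from 0) in the NEG and POS sublines of MDA-MB-231 and MDA-MB-436, by serum condition; bars are means of 2 libraries and points are the libraries. The MDA-MB-436 POS bar in standard serum is the lowest of that line, with libraries at 2490 and 2446 CPM.

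In standard serum, 30 of the 46 genes were called lower in MDA-MB-436 POS, against 6.06% of all genes tested, and 1 was called higher, against 6.47%. By adjusted p alone, 37 were lower (23.4% of all genes) and 3 were higher (26.1%). The median log2 fold change of the 46 was -1.73, against 0.00 over all 15414 genes, and 43 of 46 values were below 0.

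IFI27, a small membrane protein gene strongly induced by type I interferon, fell from 32.0 and 29.6 CPM to 0.847 and 0.713 CPM (log2 fold change -5.34, standard error 0.128, adjusted p = 2.74e-15, edgeR). IFI6, an endoplasmic reticulum protein that restricts flaviviruses, fell from 259 and 257 CPM to 26.8 and 33.8 CPM (-3.15, standard error 0.0938, adjusted p = 2.2e-14). The neighbouring genes IFI44 and IFI44L on chromosome 1 fell together: IFI44 went from 208 and 204 to 37.6 and 35.8 CPM (-2.55, standard error 0.0801, adjusted p = 2.95e-14) and IFI44L from 158 and 153 to 11.3 and 9.77 CPM (-3.93, standard error 0.112). In each of these genes both POS libraries lay far below both NEG libraries. XAF1, a pro-apoptotic protein, fell by 3.07 on the log2 scale, and IFI35, which binds NMI, fell by 1.18. EPSTI1 and LGALS3BP, the remaining genes of this role group, were not called.

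Among the IFIT family, whose products bind viral RNA ends or translation factors, 3 of 4 fell. IFIT1 went from 77.2 and 75.9 CPM to 9.3 and 9.33 CPM (log2 fold change -3.10, standard error 0.101, adjusted p = 4.66e-14, edgeR), and IFIT2 and IFIT3 fell by 1.85 and 1.97. IFIT5 went the other way, from 6.28 and 6.89 CPM to 23.5 and 22.3 CPM (1.74, standard error 0.0993, adjusted p = 1.18e-10). It was the only member called higher in this comparison, although it lies in the same cluster of 4 IFIT genes (GRCh37 chr10:91043451-91181362) as the 3 that fell.

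Genes for membrane proteins that hold back virus entry or release were mixed. BST2, or tetherin, fell from 431 and 396 CPM to 108 and 102 CPM (log2 fold change -2.04, standard error 0.0784, adjusted p = 5.68e-13, edgeR), and IFITM1 fell by 2.18. IFITM3 (-0.81) and IFITM2 (-0.47) were not called. Reads of the closely related IFITM1, IFITM2 and IFITM3 genes may be split between copies.

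All 3 nucleic acid sensors fell: IFIH1 (MDA5) from 91.8 and 95.2 to 23.6 and 21.0 CPM, so that it fell by 2.12 on the log2 scale, DHX58 (LGP2) by 1.73 and IFI16 by 1.38. Of the OAS family genes, OAS1 fell by 4.11, OAS2 by 3.17, OAS3 by 2.12 and OASL by 2.21. OAS3 went from 151 and 158 to 39.3 and 34.4 CPM. By contrast, the kinase gene EIF2AK2 (-0.78) and the editing enzyme gene ADAR (-0.48) did not reach the fold threshold. In the ISG15 system, ISG15 itself fell by 2.19, its ligase HERC5 by 1.61, the neighbouring gene HERC6 by 2.05 and the protease USP18 by 2.17. The conjugating enzyme gene UBE2L6 (-0.51) and the ligase gene TRIM25 (-0.11) were not called. Reads of USP18 may be split with a closely related copy.

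The transcription factors were lower too, by unlike amounts. STAT2 was at 81.7 and 82.3 CPM in NEG and 42.4 and 45.5 CPM in POS, a log2 fold change of -0.96 in edgeR (adjusted p = 3.82e-08, standard error 0.084), just short of the fold threshold. IRF9, its DNA-binding partner, fell from 5.95 and 6.13 to 1.61 and 1.87 CPM (-1.86, standard error 0.173, adjusted p = 8.33e-08). IRF7, which drives interferon genes, was at 30.5 and 37.3 CPM in NEG and 12 and 19.8 CPM in POS (-1.16, standard error 0.218, adjusted p = 0.00471). The IRF7 call was lost without MDA-MB-436 POS replicate 1 (-0.86). It was also lost when edgeR was run on the MDA-MB-436 groups alone (-1.14, adjusted p = 0.0511).

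Of the 9 further restriction factor genes, 5 fell: MX2 by 2.76, TRIM22 by 2.33, CMPK2 by 1.90, the exonuclease gene ISG20 by 1.72 and RSAD2 (viperin) by 1.2. SP100 (-0.27), SAMD9 (-0.09), SAMD9L (0.45) and MX1 (0.99) were not called. PARP9 fell by 1.13, while its partner DTX3L (-0.15) did not pass and PARP14 reached the adjusted p but not the fold threshold. PARP9 and DTX3L overlap on opposite strands, as do CMPK2 and RSAD2, and which strand column was used for the deposited counts is not given in the sources used here.

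**Figure D2:**
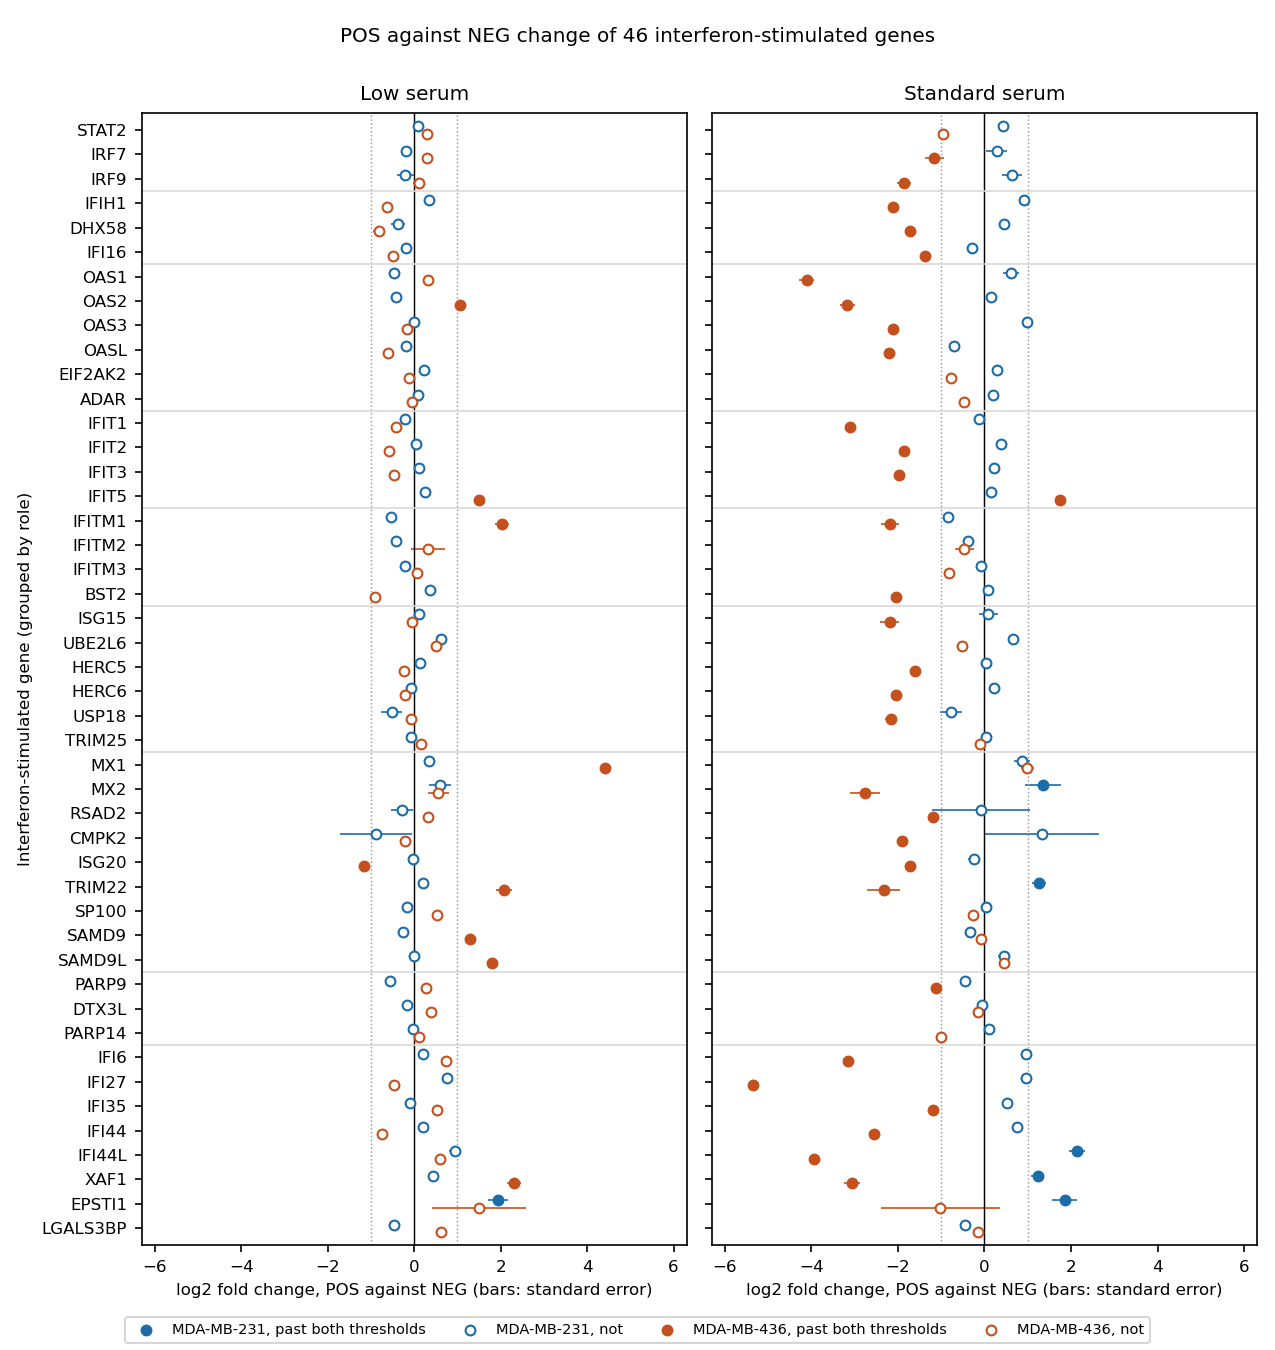
Log2 fold change of POS against NEG (x axis) for each of the 46 genes (y axis, grouped by role) in MDA-MB-231 (blue) and MDA-MB-436 (orange), in low serum (left) and standard serum (right); bars are standard errors, filled points were called and dotted lines mark -1 and 1. In standard serum 30 orange points are filled left of -1, and in low serum MX1 stands at 4.42.

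In low serum the same MDA-MB-436 sublines differed in the opposite direction for several members. Here 8 of 46 genes were called higher in POS, against 6.52% of all genes, and 1 lower, against 4.03%. By adjusted p alone 22 were higher (26.6% of all genes) and 15 lower (25.3%), and the median log2 fold change was 0.22, against 0.01 over all 16069 genes.

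MX1, the gene of a dynamin-like GTPase that traps viral nucleocapsids (GRCh37 chr21:42791947-42841998, plus strand), rose from 6.06 and 6.08 CPM to 133 and 129 CPM. The change was 4.42 on the log2 scale (adjusted p = 5e-36 in edgeR, standard error 0.0767), the largest of the list in this comparison. In standard serum the same gene went from 4.18 and 4.11 to 8.99 and 8.07 CPM (0.99, standard error 0.145, adjusted p = 1.83e-05), so POS was above NEG in both conditions without reaching the fold threshold there. MX2, which lies beside it, gave 0.56 in low serum (adjusted p = 0.0579), with 1.5 and 1.08 CPM in NEG and 1.52 and 2.4 CPM in POS, which lie next to each other at 1.5 and 1.52 CPM.

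SAMD9 and SAMD9L, adjacent genes on chromosome 7 (GRCh37 chr7:92728826-92777698) whose products restrict poxviruses and cell growth, rose together in low serum. SAMD9L went from 18.4 and 18 CPM to 60.3 and 67.6 CPM (log2 fold change 1.80, standard error 0.0687, adjusted p = 2.35e-24, edgeR). SAMD9 went from 56.7 and 51.4 CPM to 134 and 136 CPM (1.30, standard error 0.0571, adjusted p = 2.41e-22). In standard serum SAMD9L was at 14.4 and 13.7 CPM in NEG and 21.4 and 18.5 CPM in POS, and SAMD9 did not pass the test. IFIT5 rose from 9.28 and 9.39 to 24.9 and 28.2 CPM (1.49, standard error 0.0853, adjusted p = 1.66e-18) and was the only member called higher in POS in both serum conditions of MDA-MB-436. ISG20 was the only member called lower in both, from 88.5 and 89.7 CPM to 42.2 and 38.8 CPM in low serum (-1.15, standard error 0.0628, adjusted p = 4.11e-19) and from 78.0 and 76.8 to 21.6 and 27.4 CPM in standard serum.

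IFITM1, OAS2, TRIM22 and XAF1 were called in both serum conditions of MDA-MB-436 with opposite signs, and OAS2 is named here because of that pattern, after its values were seen. Over all 15286 genes tested in both conditions, 5 (0.0327%) were called higher in low serum and lower in standard serum, and these 4 members are among them. IFITM1 rose in low serum from 1.59 and 1.61 to 7.2 and 5.98 CPM (log2 fold change 2.04, standard error 0.161, adjusted p = 4.55e-14, edgeR) and fell in standard serum from 2.22 and 2.04 to 0.521 and 0.439 CPM (-2.18, standard error 0.214, adjusted p = 1.6e-07). The NEG subline lay between 1.59 and 2.22 CPM over both conditions, with the POS subline above it in low serum and below it in standard serum. XAF1 went from 2.08 and 1.82 to 8.91 and 10.8 CPM in low serum (2.31, standard error 0.164, adjusted p = 4.04e-13) and from 6.6 and 7.38 to 0.869 and 0.851 CPM in standard serum (-3.07, standard error 0.182, adjusted p = 1.84e-10).

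TRIM22, a nuclear ubiquitin ligase gene, went from 1.01 and 0.978 to 3.98 and 4.48 CPM in low serum (log2 fold change 2.07, standard error 0.183, adjusted p = 1.06e-12, edgeR) and from 0.977 and 0.919 to 0.282 and 0.0823 CPM in standard serum (-2.33, standard error 0.387, adjusted p = 0.000102). The last value rests on 13 and 3 counts. OAS2 went from 9.49 and 7.93 to 18.6 and 18.2 CPM in low serum (1.06, standard error 0.0888, adjusted p = 2.1e-13) and from 5.98 and 7.05 to 0.738 and 0.768 CPM in standard serum (-3.17, standard error 0.169, adjusted p = 4.7e-11). The low-serum call of OAS2 lies close to the fold threshold and was lost without MDA-MB-436 NEG replicate 2 (0.95) or POS replicate 1 (0.98). The difference between the serum conditions was not tested, for the reason given above.

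Several members that were called lower in standard serum, and STAT2, differed by less than the fold threshold in low serum. STAT2 was at 90.7 and 79.3 CPM in NEG and 102 and 110 CPM in POS, IRF9 at 7.74 and 8.0 and at 6.7 and 10.5 CPM, and IRF7 at 41.1 and 44.2 and at 50.8 and 54.1 CPM. IFI27 was at 7.65 and 8.73 CPM in NEG and 6.26 and 5.55 CPM in POS, and OAS1 at 20.3 and 19.9 and at 26.2 and 24.1 CPM. The 3 sensors were lower in POS here too, by less than the fold threshold (IFIH1 -0.63, DHX58 -0.82, IFI16 -0.48).

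**Figure D3:**
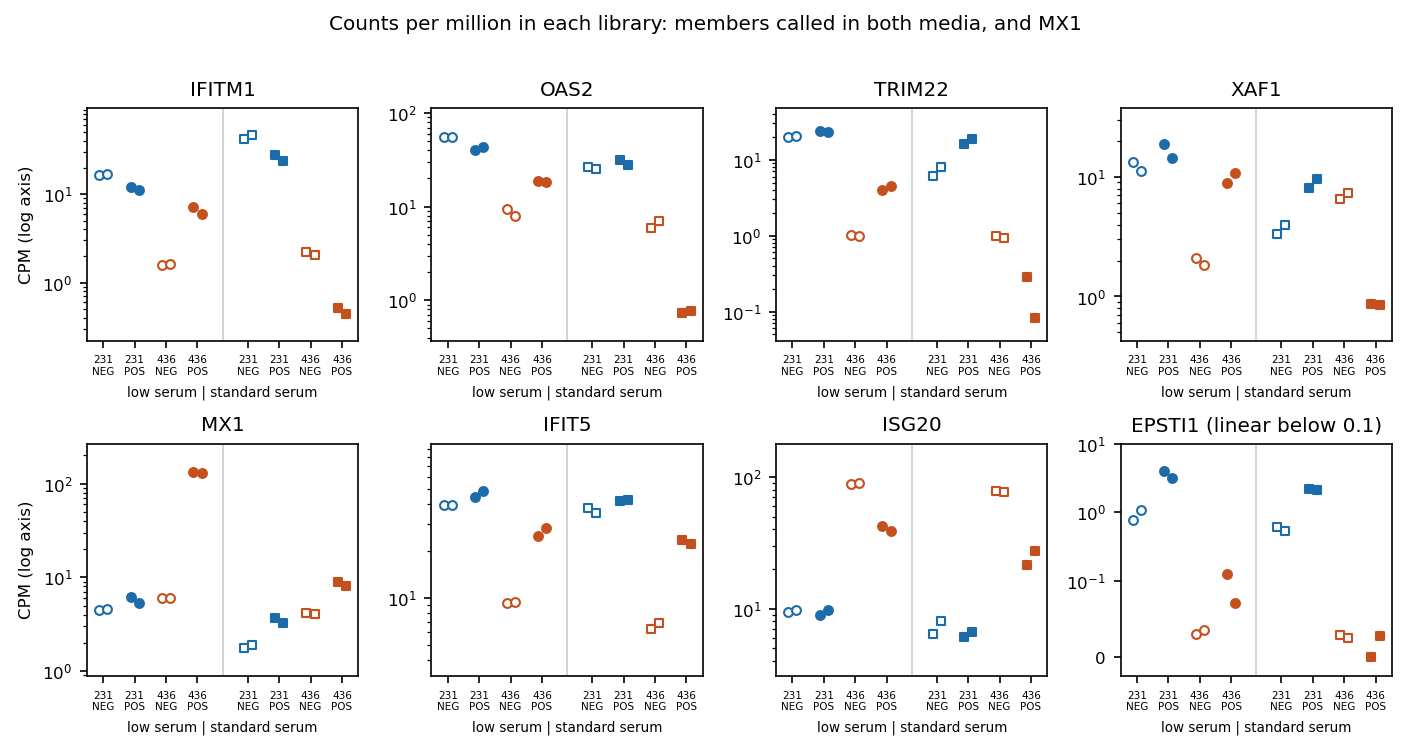
CPM in each library (y axis, log scale; for EPSTI1 linear below 0.1) for 8 members, by subline (open symbols NEG, filled POS; blue MDA-MB-231, orange MDA-MB-436), with low serum as circles on the left and standard serum as squares on the right of each panel. In IFITM1, OAS2, TRIM22 and XAF1 the orange filled symbols lie above the open ones in low serum and below them in standard serum.

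In MDA-MB-231 fewer members were called, and those called were higher in POS. In low serum 1 of 46 genes was called higher, against 3.50% of all genes, and 0 were called lower, against 2.40%. By adjusted p alone 13 were higher (19.0% of all genes) and 12 lower (19.9%), and DESeq2 also called 1 higher and 0 lower. By edgeR's unadjusted p under 0.05, 15 members were lower. The call count was 2 without NEG replicate 2 or POS replicate 2. The median was -0.03, against -0.01 over all genes. In standard serum 5 of 46 were called higher (4.96% of all genes) and 0 lower (2.72%). By adjusted p alone 21 were higher (16.8%) and 8 lower (16.2%), while DESeq2 called 0 lower and 8 members were lower by edgeR's unadjusted p under 0.05. The median was 0.22, against 0.00 over all genes.

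EPSTI1, a gene first described in breast epithelium grown with stroma, was the member called in both serum conditions of MDA-MB-231. It rose from 0.783 and 1.1 CPM to 4.01 and 3.17 CPM in low serum (log2 fold change 1.94, standard error 0.235, adjusted p = 5.86e-09, edgeR) and from 0.607 and 0.534 to 2.16 and 2.15 CPM in standard serum (1.85, standard error 0.288, adjusted p = 5.78e-05). Both POS libraries lay above both NEG libraries each time, at a low level throughout. In MDA-MB-436 the gene was at or below 0.126 CPM in all libraries.

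The other 4 called in MDA-MB-231 in standard serum were IFI44L, XAF1, TRIM22 and MX2. IFI44L rose from 0.828 and 1.07 to 3.68 and 4.91 CPM (log2 fold change 2.13, standard error 0.187, adjusted p = 1.2e-07, edgeR), XAF1 from 3.34 and 3.96 to 8.09 and 9.65 CPM (1.23, standard error 0.15, adjusted p = 3.94e-06) and TRIM22 from 6.12 and 7.92 to 16.1 and 18.8 CPM (1.26, standard error 0.158, adjusted p = 9.36e-06). MX2 rested on 9 and 7 counts in NEG and 22 and 22 in POS (1.36, standard error 0.412, adjusted p = 0.0159), and its call was lost with DESeq2 (adjusted p = 0.122) and without either NEG replicate or POS replicate 1. IFI44L, XAF1, TRIM22 and MX2 were all called lower in MDA-MB-436 in standard serum, a pair of calls that 0.616% of all genes showed.

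IFI27 (0.97), OAS3 (0.98), IFI6 (0.95) and IFIH1 (0.92) passed the adjusted p in MDA-MB-231 in standard serum and lay just under the fold threshold. IFI27 went from 36.3 and 36.6 CPM to 74.5 and 73.3 CPM, and in low serum from 40.1 and 40.0 to 68.0 and 66.2 CPM (0.75, adjusted p = 7.26e-13, edgeR). On the other side, IFITM1 was at 42.2 and 46.5 CPM in NEG and 27.4 and 23.6 CPM in POS (-0.85), and LGALS3BP, a secreted galectin ligand, at 1310 and 1280 and at 1030 and 963 CPM (-0.44). STAT2 was at 119 and 135 CPM in NEG and 164 and 191 CPM in POS (0.43), IRF9 at 0.966 and 1.07 and at 1.51 and 1.76 CPM (0.63), and IRF7 at 9.02 and 9.43 and at 11.9 and 11.4 CPM (0.28, adjusted p = 0.441). In low serum STAT2 (0.10), IRF7 (-0.18) and IRF9 (-0.21) did not pass the test in this line: STAT2 was at 139 and 141 CPM in NEG and 156 and 142 CPM in POS, IRF7 at 23.4 and 22.6 and at 21.9 and 18.3 CPM, and IRF9 at 3.62 and 3.4 and at 3.07 and 2.96 CPM.

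The difference between the lines was tested as the MDA-MB-231 change minus the MDA-MB-436 change, which uses the libraries of the comparisons above. In standard serum it was called above 0 for 31 of 46 genes (7.02% of all genes) and below 0 for 1 (6.81%), IFIT5 (-1.58, standard error 0.132, adjusted p = 3.2e-08, edgeR). The median difference was 1.57, against -0.01 over all genes. The largest was that of IFI27 (6.31, standard error 0.156, adjusted p = 6.8e-15), and the 4 genes called in opposite directions gave 6.07 (IFI44L), 4.31 (XAF1), 4.12 (MX2) and 3.59 (TRIM22). All 3 transcription factors were called, and so were IFI6 (4.09), IFI44 (3.30), OAS3 (3.10) and IFIH1 (3.04). OAS3 went from 9.46 and 9.08 to 19.8 and 18.1 CPM and IFIH1 from 8.88 and 8.8 to 18 and 16.7 CPM in MDA-MB-231. The transcription factors had IRF9 at 2.49, IRF7 at 1.44 and STAT2 at 1.39, and the call for IRF7 was lost without either MDA-MB-231 NEG replicate (adjusted p = 0.0651 and 0.0571).

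In low serum the difference was called above 0 for 3 genes (4.72% of all genes), BST2, IFI27 and ISG20, and below 0 for 9 (7.01%). MX1 gave -4.07 (standard error 0.149, adjusted p = 1.29e-24, edgeR), SAMD9L -1.80, SAMD9 -1.56 and IFITM1 -2.57. None of them was called in MDA-MB-231. There MX1 was at 4.53 and 4.61 CPM in NEG and 6.18 and 5.36 CPM in POS, SAMD9L at 31.2 and 30.5 and at 29.8 and 31.3 CPM, SAMD9 at 79.4 and 81.3 and at 64.8 and 69 CPM, and IFITM1 at 16.5 and 17.1 and at 11.9 and 11.1 CPM. BST2 gave 1.28 (standard error 0.0717, adjusted p = 1.58e-18): it went from 174 and 182 to 236 and 221 CPM in MDA-MB-231 and from 330 and 339 to 184 and 174 CPM in MDA-MB-436. LGALS3BP gave -1.10 (standard error 0.0736, adjusted p = 5.18e-16), with 756 and 679 CPM in NEG and 523 and 512 CPM in POS of MDA-MB-231 and 128 and 132 and 202 and 206 CPM in MDA-MB-436. IFITM1, OAS2, TRIM22 and XAF1 were called below 0 in low serum and above 0 in standard serum.

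The starting levels of the NEG sublines differed as well. In low serum 26 of 46 genes were called higher in MDA-MB-436 NEG than in MDA-MB-231 NEG (21.4% of all genes) and 10 lower (20.5%). In standard serum 28 were higher (25.4%) and 10 lower (21.3%). In both conditions 25 were higher, against 18.8% of the genes tested in both, and 8 were lower, against 16.5%. These comparisons share their NEG libraries with the POS against NEG comparisons.

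RSAD2 and CMPK2, neighbouring genes on chromosome 2 (GRCh37 chr2:6980701-7038370), were nearly on or off between the lines. RSAD2 was at 117 and 115 CPM in MDA-MB-436 NEG in standard serum, whereas MDA-MB-231 NEG held 0 and 2 counts, so the level was at least 1310-fold higher against a floor of 3 counts per library. CMPK2, a mitochondrial nucleotide kinase gene, was at 52.5 and 48.5 CPM against 1 and 0 counts, at least 571-fold higher. In low serum RSAD2 was at 200 and 196 against 0.685 and 1.0 CPM (log2 fold change 7.77, standard error 0.096, adjusted p = 1.06e-42, edgeR) and CMPK2 at 78.1 and 80.8 against 0.0652 and 0.134 CPM.

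Other members far higher in MDA-MB-436 NEG were IFI44L, IFI6, OASL and IFIH1. IFI6 was at 358 and 380 CPM against 23.0 and 23.8 CPM in low serum (log2 difference 3.87, standard error 0.0621, adjusted p = 1.01e-38, edgeR) and OASL at 406 and 412 against 31.6 and 32.6 CPM (3.57, standard error 0.0594). IFIH1 was at 190 and 191 against 15.8 and 16.4 CPM, and in standard serum IFI44 was at 208 and 204 against 13.6 and 12.8 CPM. In standard serum OASL was at 251 and 237 against 8.28 and 9.71 CPM (4.56), IFI6 at 259 and 257 against 9.1 and 9.49 CPM (4.59) and IFI44L at 158 and 153 against 0.828 and 1.07 CPM (7.16, adjusted p = 2.46e-17).

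Those far lower were IFITM2, IFITM1, TRIM22, LGALS3BP and EPSTI1. IFITM2 was at 0.948 and 0.843 CPM in MDA-MB-436 NEG against 120 and 122 CPM in MDA-MB-231 NEG in standard serum (log2 difference -7.29, standard error 0.126, adjusted p = 5.7e-19, edgeR). EPSTI1 was at 1 count in each MDA-MB-436 NEG library in both serum conditions, and its level in MDA-MB-231 NEG was at least 9.58-fold higher in low serum and 6.90-fold in standard serum against the same floor. XAF1 was lower in MDA-MB-436 NEG in low serum (-2.75, adjusted p = 3.58e-16) and at 0.74 in standard serum, below the fold threshold.

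Set per transcript length, as TPM, the most abundant members differed between the lines. In standard serum LGALS3BP led in MDA-MB-231 NEG at a mean of 1360 TPM, followed by BST2 at 794 and IFITM3 at 671 TPM. IFITM3 led in MDA-MB-436 NEG at 1570 TPM, followed by BST2 at 1350, IFI6 at 1090 and ISG15 at 893 TPM. In MDA-MB-436 POS, IFITM3 was still first at 963 TPM and BST2 second at 352 TPM, followed by ADAR at 235 TPM. In low serum IFI6 led in both MDA-MB-436 sublines, at 1300 TPM in NEG and 1820 TPM in POS.

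**Figure D4:**
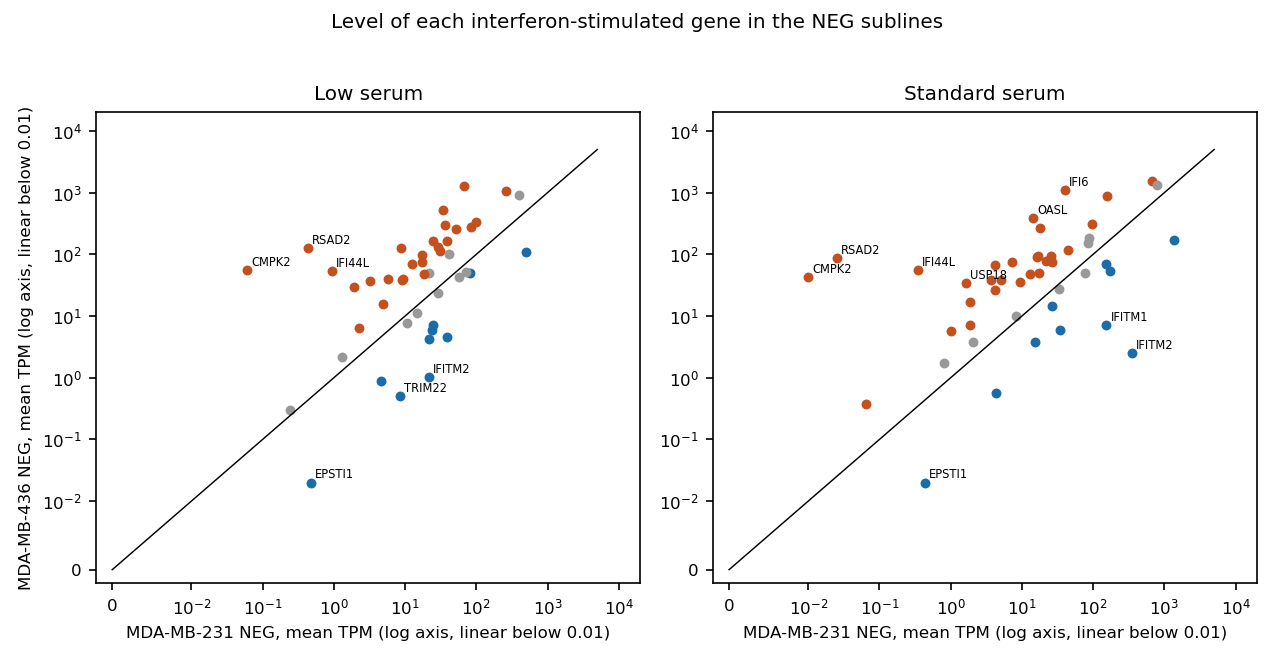
Mean TPM of each member (2 libraries) in MDA-MB-231 NEG (x axis) and MDA-MB-436 NEG (y axis), on log axes that are linear below 0.01, for low serum (left) and standard serum (right); orange genes were called higher in MDA-MB-436 NEG, blue lower and grey not called, and the line marks equal levels. RSAD2 and CMPK2 lie farthest above the line, and IFITM2 and EPSTI1 lie far below it.

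By position, 22 of the 46 members lay within 100 kb of another member, in 9 groups on GRCh37, and members of a group did not always move together. The 3 OAS genes on chromosome 12 fell together in MDA-MB-436 in standard serum, as did the HERC, IFI44 and RSAD2 with CMPK2 groups. MX1 (0.99) and MX2 (-2.76), IFIT5 (1.74) and its 3 neighbours, and PARP9 (-1.13) and DTX3L (-0.15) gave unlike values in that comparison. In low serum OAS2 rose by 1.06 while OAS1 (0.31) and OAS3 (-0.16) did not reach the fold threshold.

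The rest of the pathway was read from 6 further lists with 58 symbols, of which 57 were matched. Of 21 interferon genes, 5 passed the count filter in low serum and 4 passed it in standard serum, among them IFNB1 and IFNL1, IFNL2 and IFNL3. IFNB1, the type I interferon of most cell types, held 0 counts in all 8 MDA-MB-231 libraries. In MDA-MB-436 it was at 2.2 and 1.36 CPM in NEG and 1.42 and 2.22 CPM in POS in low serum, and at 1.15 and 1.05 and at 0.152 and 0.357 CPM in standard serum (log2 fold change -2.21, standard error 0.412, adjusted p = 0.000312, edgeR).

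IFNL1, a type III interferon, was at 6.09 and 6.08 CPM in MDA-MB-436 NEG and 2.12 and 2.08 CPM in POS in low serum (-1.55, standard error 0.177, adjusted p = 1.15e-09, edgeR) and at 3.02 and 2.91 and at 0.391 and 0.302 CPM in standard serum (-3.12, standard error 0.289, adjusted p = 2.18e-07). It therefore fell in both serum conditions, while MDA-MB-231 held at most 2 counts in a library. IFNL2 held 11 and 11 counts in NEG and 1 and 0 in POS of MDA-MB-436 in standard serum, and IFNL3 held 6 and 5 and 1 and 1, and both were called lower there. IFNE, IFNK, IFNA5, IFNA10, IFNA14, IFNA16 and IFNA17 were detected in MDA-MB-436 at no more than 0.179 CPM in a library.

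None of the 6 receptor genes was called in MDA-MB-436, and IFNLR1, the type III interferon receptor chain, fell in MDA-MB-231 in standard serum from 4.83 and 4.93 to 1.45 and 1.48 CPM (-1.79, standard error 0.187, adjusted p = 6.68e-07).

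Of the sensing adaptors, TMEM173 (STING), the adaptor of cytosolic DNA sensing, fell in MDA-MB-436 in both conditions. It went from 68.0 and 62.7 to 21.8 and 23.4 CPM in low serum (log2 fold change -1.55, standard error 0.0638, adjusted p = 3.16e-23, edgeR) and from 71.6 and 69.1 to 10.3 and 10.9 CPM in standard serum (-2.79, standard error 0.0878, adjusted p = 2.95e-14). In MDA-MB-231 it lay between 47.0 and 55.8 CPM in all libraries. TLR3, an endosomal RNA sensor, rose in MDA-MB-231 in standard serum from 2.46 and 1.98 to 8.71 and 8.53 CPM (1.90, standard error 0.152, adjusted p = 2.25e-08). Among 6 negative regulators, SOCS1 rose in MDA-MB-231 from 1.73 and 1.1 to 3.58 and 3.21 CPM in low serum (1.27, adjusted p = 7.78e-07) and from 0.221 and 0.0943 to 0.741 and 1.42 CPM in standard serum (2.67, adjusted p = 0.00464).

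Of 11 genes better known as interferon-gamma-type targets, 10 were tested. In standard serum 4 were called higher (4.96% of all genes) and 0 lower (2.72%) in MDA-MB-231. In MDA-MB-436, 1 was called higher there, CIITA (6.47% of all genes), and 4 lower (6.06%). In low serum 3 were called higher (3.50%) and 0 lower (2.40%) in MDA-MB-231. For MDA-MB-436 the low-serum counts were 2 higher (6.52%) and 3 lower (4.03%). CXCL10, a chemokine for T cells, rose in MDA-MB-231 from 0.587 and 0.601 to 2.44 and 1.73 CPM in low serum (log2 fold change 1.82, standard error 0.259, adjusted p = 2.06e-07, edgeR) and from 0.166 and 0.126 to 1.16 and 1.0 CPM in standard serum (2.80, standard error 0.378, adjusted p = 1.3e-05). In MDA-MB-436 it fell from 22 and 23.2 to 5.06 and 5.34 CPM in low serum (-2.13, standard error 0.112, adjusted p = 1.08e-19) and from 5.45 and 5.52 to 0.413 and 0.329 CPM in standard serum (-3.91, standard error 0.237, adjusted p = 2.61e-10).

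CXCL10 was thus called in opposite directions between the lines in both serum conditions, as was CXCL11, with log2 fold changes of 1.53 and 1.61 in MDA-MB-231 and -2.22 and -3.85 in MDA-MB-436 in low and standard serum. In low serum CXCL11 went from 0.881 and 0.868 to 2.21 and 2.86 CPM in MDA-MB-231 and from 10.1 and 8.31 to 2.21 and 1.76 CPM in MDA-MB-436. The guanylate-binding protein gene GBP4 rose in MDA-MB-231 in standard serum from 2.01 and 1.35 to 4.92 and 4.43 CPM (1.41) and GBP5 rose in low serum from 0.75 and 0.701 to 2.47 and 1.87 CPM (1.59). GBP5 fell in MDA-MB-436 from 28.5 and 28.5 to 10.3 and 10.0 CPM in low serum (-1.50, standard error 0.0931, adjusted p = 2.3e-17, edgeR), and GBP2 fell in standard serum from 40.1 and 39.7 to 8.75 and 8.26 CPM (-2.28, standard error 0.0927, adjusted p = 1.09e-12).

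**Figure D5:**
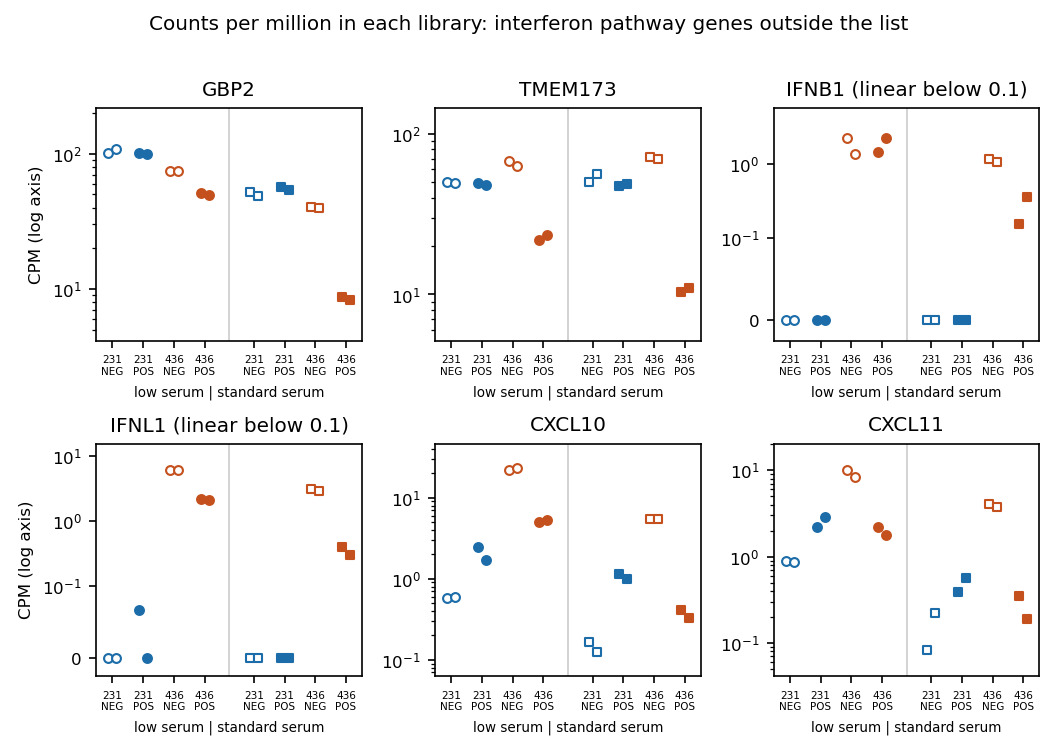
CPM in each library (y axis, log scale; for IFNB1 and IFNL1 linear below 0.1) for 6 interferon pathway genes outside the list, with symbols as in the panels of members: open NEG, filled POS, blue MDA-MB-231, orange MDA-MB-436, circles low serum, squares standard serum. IFNL1, TMEM173, CXCL10 and CXCL11 were lower in MDA-MB-436 POS in both conditions, and IFNB1 and GBP2 were called lower in standard serum.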

How the data were processed

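RNA-Seq libraries of 16 samples in 8 groups of 2 were analysed. Per the paper's methods and the labels, the authors aligned reads with STAR (2.6.1a in the submitters' processing notes) to hg19 with Gencode annotation and counted reads per gene, and the deposited counts are unnormalized. The authors also deposited TPM, scaled to transcript length and library. Which strand column was counted is not given in the sources used here. Groups came from the labels. The 46 members, the pathway lists and the rules for naming genes were chosen with earlier results of these data known.

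Protein-coding genes whose counts reached a total of 10 across the 8 libraries sharing a serum condition entered the test in edgeR 4.0.16 (TMM, robust quasi-likelihood F-test, R 4.3.3) in 1 model of 4 groups per condition. P-values were Benjamini-Hochberg adjusted over all genes tested, and calls needed an adjusted p below 0.05 and a change of 1 or more on the log2 scale. Values in every library were given for the called members with the smallest adjusted p (up to 6 per comparison), those called in opposite directions in the lines, and STAT2, IRF9 and IRF7. Pathway genes named were detected interferon genes and up to 4 called genes per comparison, and some items that this rule or the markers cover are not reported here. Values of further members are given to account for all 46. CPM are counts scaled to the library total and were not TMM-scaled. TPM were used for levels between genes. A level at 3 counts or fewer in every library of a group was treated as a floor. With 2 libraries per group, p-values measure only the spread between such libraries, described as biological duplicates. That spread was shared over the 4 groups of a condition and moderated across genes. Over all genes, the 2 libraries of a group varied 3.55 to 21 times as much as counting error alone would give. Counting error weighs more for genes with few counts. Same-numbered replicates correlated between -0.126 and 0.0328 in low serum and between -0.0278 and 0.219 in standard serum, and with 2 pairs per comparison and no label that ties them, the numbers were not taken to pair samples. Alternatives were DESeq2 1.42.0, its size factors in edgeR, limma 3.58.1 on log2(TPM + 1), other filters, all biotypes, only the compared groups, a replicate block and leaving out each library. The scripts were tested on simulated data. Gene positions are GRCh37 and promoter windows RefSeq GRCh38.p14. The interferon pathway gene IKBKE was not matched and not analysed here.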

Additional observations from a re-analysis of the deposited data

Results flagged for a closer look

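The POS against NEG change differed between the lines, by the test of the difference itself in edgeR, for 12 members in low serum, against 11.7% of all genes, and 32 in standard serum, against 13.8%. In standard serum the differences of the members called in opposite directions in the lines were 6.07 for IFI44L, 4.31 for XAF1, 4.12 for MX2 and 3.59 for TRIM22. In MDA-MB-436, 4 members were called in both serum conditions with every POS library above both NEG libraries in low serum and below both in standard serum. Their log2 fold changes were 2.04 and -2.18 for IFITM1, 1.06 and -3.17 for OAS2, 2.07 and -2.33 for TRIM22 and 2.31 and -3.07 for XAF1. The difference between the serum conditions was not tested.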

How the results depend on the processing

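Of 164 calls of single members, 142 were kept under all alternatives run, 22 were lost under at least 1, and none changed sign; 156 were kept whichever library was left out. By adjusted p alone the count of members called in low serum rose to 25 for MDA-MB-231 (38.9% of all genes) and 37 for MDA-MB-436 (52.0%). It rose to 30 for the line difference in low serum (45.7%) and to 29 for MDA-MB-231 in standard serum (33.0%). With limma on log2(TPM + 1), which shrinks folds of low genes, 17 calls were lost. It called 0 and 1 members in MDA-MB-231 under low and standard serum. Several flagged genes were among those lost. In MDA-MB-436 they were TRIM22 in low (0.89) and standard serum (-0.5), OAS2 in low serum (0.7) and MX2 in standard serum (-0.38). In MDA-MB-231 they were IFI44L (0.92), XAF1 (0.96) and MX2 (0.15) in standard serum. A filter on mean CPM left 3 in MDA-MB-231 in standard serum, with fewer genes tested. DESeq2 lost 1 call, MX2 in MDA-MB-231.

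Leaving out 1 library gave 1 to 2 members for MDA-MB-231 and 8 to 9 for MDA-MB-436 under low serum, and 4 to 6 and 31 to 32 under standard serum; a lone remaining library was assumed to vary like the other groups. The line difference ranged from 12 to 14 and from 30 to 33. Besides those named above, IFI35 and SP100 between the NEG sublines and EIF2AK2 and PARP14 in the line difference lost a call without 1 library. In standard serum same-numbered POS and NEG replicates correlated at 0.219 in MDA-MB-231 and 0.167 in MDA-MB-436. The replicate block lost 0 of 164 calls, with 1, 9, 12 and 36 members called under low serum and 5, 32, 32 and 38 under standard serum for MDA-MB-231, MDA-MB-436, the line difference and the NEG sublines. A crossed block, chosen after seeing the data, kept 9 of 9. Depth limits MX2. It also limits EPSTI1, TRIM22, IFITM2, RSAD2 and CMPK2, which rest on few counts in 1 line.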

Other observations

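CIITA, the master regulator of MHC class II genes and the only one of the interferon-gamma-type targets called higher in MDA-MB-436 POS in both serum conditions, was at 0.0 and 0.175 CPM in NEG and 1.33 and 2.08 CPM in POS in low serum. In standard serum it held 0 counts in both NEG libraries and was at 0.347 and 0.576 CPM in POS. In MDA-MB-231 it lay between 14.7 and 46.5 CPM. It was named after its values were seen.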
